A study of Mus musculus with 24 samples.

Results

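CD4 T cells of TRIM28KO mice (KO) were compared 24 h and 4 h after the start of stimulation. The 3 arrays of KO cells at 24 h and the 3 arrays of KO cells at 4 h, 6 of the 24 arrays of the series, were chosen by the genotype and the time in the sample titles, and all 22180 genes with a probe set of their own were tested. The cells were naive CD4 T cells, isolated by magnetic selection and flow cytometry from KO mice and their wild-type littermates (WT), and both genotypes received anti-CD3 bound to the plate and anti-CD28 in solution. The 3 arrays of WT cells at 24 h and the 3 of WT cells at 4 h, with the same stimulus and the intact Trim28 gene, serve only to test whether the step between the times differed between the genotypes. The sources used here do not give how and in which cells Trim28 was deleted, the age and strain of the mice or the sort gate. No label ties an array to an animal of its own. The p-values therefore rest on the scatter among the arrays, which may be partly technical.

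A naive CD4 T cell is a small resting cell that waits in lymphoid tissue for its antigen. When its receptor and the costimulatory receptor CD28 are engaged together, kinases and calcium signals switch on immediate early transcription factors, and over the following day the cell grows, rebuilds its metabolism and enters the cell cycle for the first time. TRIM28 is a corepressor that zinc finger proteins with a KRAB domain bring to chromatin, where it recruits enzymes that methylate histones and silence nearby sequence, retroelements included.

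Levels are log2 intensities from robust multi-array averaging (RMA), so a difference of 1 is a 2-fold change. A change is KO 24 h minus KO 4 h with its standard error (SE), and a gene is said to have risen or fallen where its Benjamini-Hochberg adjusted p from limma over all genes was below 0.05. Arrays of the same time correlated at 0.9957 to 0.9963 among KO 24 h arrays and 0.994 to 0.9953 among KO 4 h arrays. Between the times they correlated at 0.9699 to 0.9766. Xist, the RNA that coats an inactive X chromosome, was high on KO arrays 1 and 2 (10.02 and 9.89 at 24 h, 9.65 and 9.61 at 4 h) and low on array 3 (3.32 at 24 h, 3.03 at 4 h), so arrays with high and with low Xist were balanced over the times. Trim28 itself was at 5.66, 5.63 and 5.53 in KO 24 h cells, against 5.49, 5.23 and 5.24 in KO 4 h cells (change 0.29, adjusted p = 0.103). Trim28 was at 9.09, 9.21 and 9.26 in WT 24 h cells and 8.41, 8.48 and 8.38 in WT 4 h cells. The KO arrays lay below all WT arrays at both times, and the sources used here do not give where the probes lie relative to the deleted sequence.

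The 8 measured CD4 T cell markers averaged 10.01 to 10.19 on the KO 24 h arrays and 10.09 to 10.24 on the KO 4 h arrays, none of them below the 40th percentile of all genes (3.24). Cd4, the coreceptor, was at 10.71, 10.57 and 10.54 in KO 24 h cells, against 10.42, 10.48 and 10.29 in KO 4 h cells, a change of 0.21 (adjusted p = 0.0186) that ended as a call without KO 24 h array 1 or KO 4 h array 3. Cd3e, a signalling chain of the receptor complex, was at 11.80, 11.54 and 11.66 in KO 24 h cells, against 11.88, 11.91 and 11.88 in KO 4 h cells (-0.22, adjusted p = 0.00473), a call that ended without KO 24 h array 2. Markers of other cells were measured as well. Their counts stand beside 15.3% of all genes that rose and 13.0% that fell. Of 19 myeloid markers 6 fell and 1 rose (list mean 3.27 to 3.46 at 24 h, 3.53 to 4.08 at 4 h, with 8 of the 19 below 3.24). Ngp, a neutrophil granule gene, was at 5.31, 3.94 and 5.12 in KO 24 h cells, against 7.61, 5.55 and 7.52 in KO 4 h cells, and its KO arrays 2 were the lowest of both times. Of 14 B cell markers 3 fell and 1 rose (list mean 4.45 to 5.12 at 24 h and 4.49 to 5.07 at 4 h, 1 of the 14 below 3.24). The measured markers of CD8 T cells (0 of 7 rose, 1 fell), natural killer and innate lymphoid cells (0 of 7 rose, 1 fell) and erythroid cells or platelets (1 of 6 rose, 0 fell) averaged 3.18 to 3.59 at 24 h and 3.25 to 3.72 at 4 h. The part of these cells in the results below was not tested. In bulk RNA, fewer cells of a type and less RNA per cell cannot be told apart.

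Between 4 h and 24 h KO cells changed on a broad scale. Of the 22180 genes 6281 passed the threshold (28.3%), 3392 of them higher at 24 h (15.3%) and 2889 lower (13.0%). Of these, 749 rose (3.38%) and 370 fell (1.67%) by 2-fold or more. Counts of every list below are to be read beside the 15.3% and 13.0% of all genes. The arrays of the times did not overlap in 8831 genes (39.8%), with 24 h higher in 4827 (21.8%) and lower in 4004 (18.1%). The 12 highest rises all lay between 4.26 and 4.89 on the log2 scale, and each concerned a gene of DNA replication, its nucleotide supply, chromatin copying or cell division. The 12 lowest changes, between -2.56 and -3.59 and leaving out small RNAs and predicted genes, held transcription factors, surface receptors and enzymes. The median change over all genes was 0.015, and the median SE was 0.12. With low genes left out (mean over all arrays below 3.24) 6394 of 13308 genes passed, a higher share than the 28.3% of all genes.

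**Figure D1:**
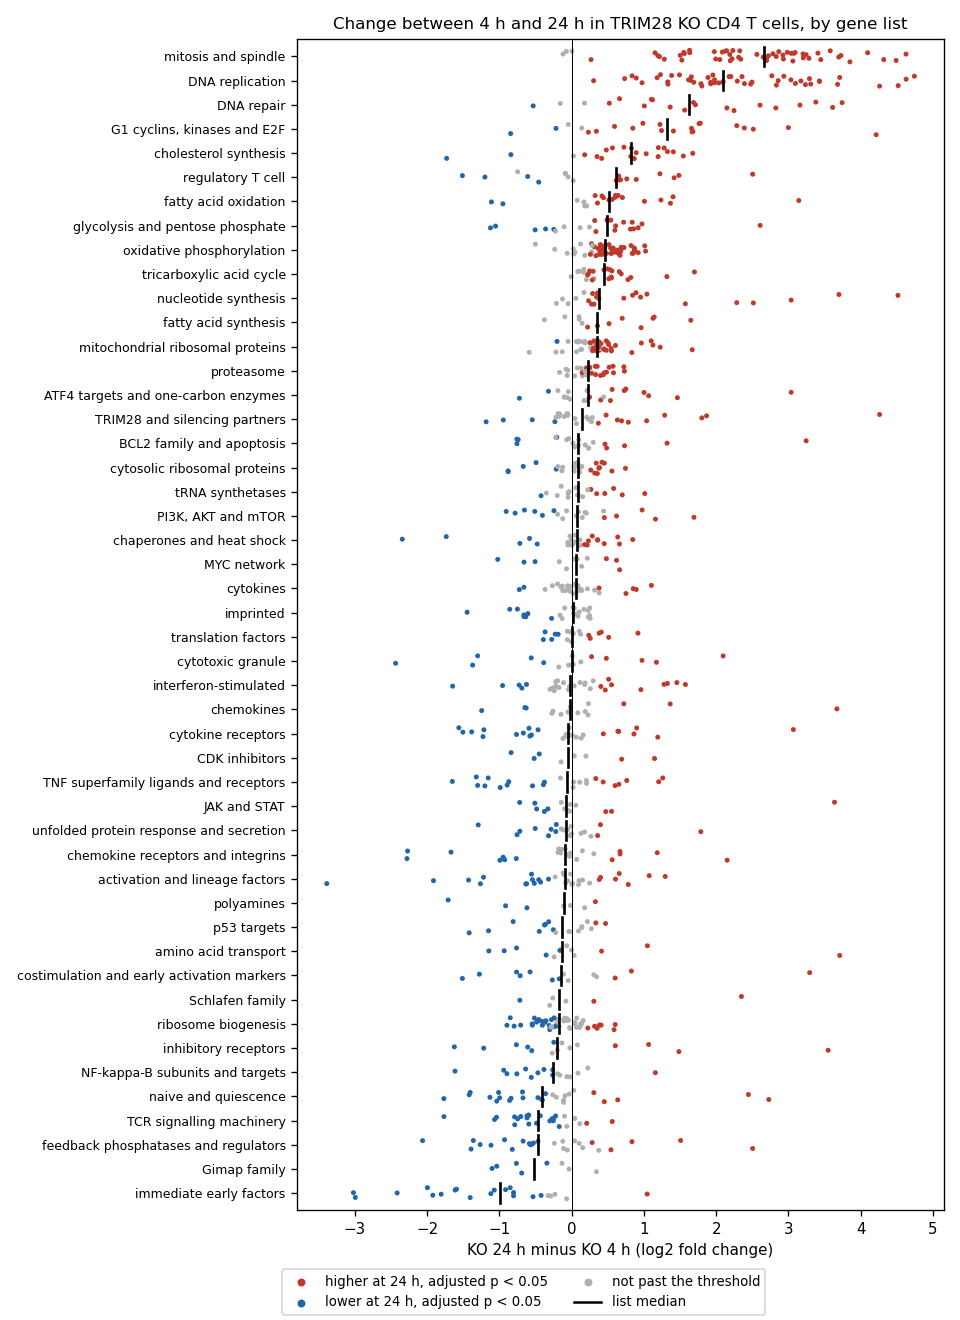
Change of each gene (KO 24 h minus KO 4 h, log2 fold change, x axis) in 48 gene lists, ordered by list median (black line), with genes that rose in red, genes that fell in blue and genes not past the threshold in grey. The mitosis and DNA replication lists stand at the top with medians of 2.66 and 2.10, and the immediate early factors at the bottom with -0.99.

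Most genes of the cell cycle rose. All 51 measured genes of DNA replication rose, with a list median of 2.10 and 46 of them at least 2-fold, where 15.3% of all genes rose. The mean level of the list was 8.24, 8.32 and 8.39 on the KO 24 h arrays, against 5.95, 6.01 and 5.99 on the KO 4 h arrays. Of 58 genes of mitosis and the spindle 55 rose and 0 fell (median 2.66), of 20 DNA repair genes 17 rose and 1 fell (median 1.62), and of 22 G1 cyclins, kinases and E2F factors 18 rose and 2 fell (median 1.32). Every array of KO 24 h cells had a higher list mean than every array of KO 4 h cells in these 4 lists.

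Genes that load and fire the replicative helicase, or limit its loading, were among the rises. Cdc6, which loads the replicative helicase onto origins, was at 8.29, 8.49 and 8.68 in KO 24 h cells, against 3.88, 3.40 and 3.95 in KO 4 h cells, a change of 4.74 (SE 0.14, adjusted p = 2.62e-19) or 26.8-fold. Mcm10, which helps to fire the loaded helicase, was at 8.02, 8.17 and 8.29 in KO 24 h cells, against 3.73, 3.23 and 3.98 in KO 4 h cells (4.52, SE 0.14). Ticrr, needed for the same step, rose by 4.37, and Dtl, which marks licensing factors for destruction in S phase and so prevents a repeat of replication, showed the largest rise of all genes tested (4.89, SE 0.13). In all of them the 3 arrays of KO 24 h cells lay above the 3 of KO 4 h cells. The helicase subunit genes Mcm2 (1.89, SE 0.073) and Mcm5 (2.94, SE 0.094) started from higher levels, with Mcm5 at 9.93, 10.06 and 10.15 in KO 24 h cells, against 7.14, 7.16 and 7.03 in KO 4 h cells. The KO 4 h arrays of Cdc6, Mcm10 and Ticrr lay between 2.96 and 3.98, close to the 40th percentile of all genes (3.24), and RMA compresses differences at such low levels.

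Upstream of replication, the E2F factors and the cyclin that drives entry into S phase rose as well. E2f1, an activator of S phase genes, was at 7.10, 7.03 and 7.21 in KO 24 h cells, against 4.44, 4.66 and 4.71 in KO 4 h cells (2.51, SE 0.12, adjusted p = 7.69e-15), E2f2 rose by 2.39 and E2f8, which represses E2F targets later in the cycle, by 4.21. Ccne1, the cyclin E that activates CDK2, was at 7.41, 7.30 and 7.30 in KO 24 h cells, against 4.16, 4.49 and 4.36 in KO 4 h cells (2.999). The D cyclins, which act earlier, moved less: Ccnd3 rose by 1.41 (SE 0.089) and Ccnd2, at 10.74, 10.68 and 10.76 in KO 24 h cells, against 10.40, 10.42 and 10.34 in KO 4 h cells, by 0.34 (SE 0.087). E2f5, a factor that works as a repressor in resting cells, was the lowest of the list with 6.09, 6.16 and 6.27 in KO 24 h cells, against 6.90, 6.96 and 7.19 in KO 4 h cells (-0.84, adjusted p = 1.87e-06). Of 8 CDK inhibitors 2 rose and 3 fell. Cdkn1b, which encodes p27 and holds resting T cells out of the cycle, was at 7.31, 6.89 and 6.82 in KO 24 h cells, against 8.10, 7.90 and 7.55 in KO 4 h cells (-0.84, SE 0.13, adjusted p = 6.46e-06). Cdkn2c, which encodes p18, rose by 1.15 (SE 0.20).

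Genes of nucleotide supply rose too. Of 23 genes of nucleotide synthesis 18 rose and 0 fell (median 0.38). Rrm2, the small subunit of ribonucleotide reductase and limiting for deoxynucleotides, was at 8.44, 8.48 and 8.51 in KO 24 h cells, against 3.98, 4.15 and 3.76 in KO 4 h cells (4.51, SE 0.17), and its partner Rrm1 rose by 2.51 from a higher level. Tk1, the thymidine kinase of S phase cells, rose by 3.70 and Tyms, thymidylate synthase, by 3.04. Uhrf1, which carries DNA methylation over to the new strand, was at 8.65, 8.71 and 8.87 in KO 24 h cells, against 4.36, 4.47 and 4.60 in KO 4 h cells (4.26, SE 0.12). Hells, a chromatin remodeller of the same task, rose by 4.38. Repair genes that act at replication forks rose too, with the exonuclease gene Exo1 at 3.74, Fancd2 of the Fanconi anaemia pathway at 3.61, the recombination helicase gene Rad54l at 3.38 and Brca2, a loader of recombinase, at 3.16. The exception was Fancc, also of the Fanconi anaemia pathway, with -0.53 (SE 0.13, adjusted p = 0.00174).

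Genes of division itself rose by similar amounts. Mki67, the antigen Ki-67 that marks cycling cells, was at 8.75, 8.65 and 8.86 in KO 24 h cells, against 4.54, 4.31 and 4.45 in KO 4 h cells (4.32, SE 0.12, adjusted p = 1.83e-19). Cdk1, the kinase that drives mitosis, was at 6.18, 6.85 and 6.70 in KO 24 h cells, against 3.02, 2.80 and 2.36 in KO 4 h cells (3.85, SE 0.18), and its cyclin Ccna2 rose by 4.10. Top2a, the topoisomerase that untangles sister chromosomes, was at 8.70, 8.70 and 8.92 in KO 24 h cells, against 4.19, 3.97 and 4.28 in KO 4 h cells (4.63). Aurkb, the kinase that checks attachment to the spindle, rose by 4.63, and Nuf2 of the kinetochore by 4.49. Stil, needed to build centrioles, rose by 4.31. In each of these 7 genes the KO 24 h arrays lay more than 3 log2 units above the KO 4 h arrays. Birc5, the chromosomal passenger survivin that is also an inhibitor of apoptosis, rose by 3.24 (SE 0.15).

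Some promoters of these genes carry short words that are known as contact sites of cell cycle factors. The 5 shown belong to named genes that hold such a word, taken in order of their rise. They were thus chosen for the word and for the rise. RefSeq promoters (build GRCm38.p6, 250 bases before to 50 after the start of the gene) were searched on both strands for the E2F-type words TTTGGCGC, TTTCCCGC, TTTGCCGC and TTTCGCGC, the word TTTGAA of the cell cycle homology region (CHR) and the CCAAT box. Of 27025 promoters 626 held an E2F-type word (2.32%), 4893 a CHR word (18.1%) and 10248 a CCAAT box (37.9%), an E2F-type word overlapped a CCAAT box in 4 promoters and a CHR word did in 40. Of the 16990 tested genes with a promoter 2.93% held an E2F-type word, 15.8% a CHR word and 38.5% a CCAAT box. In the replication list 15 of 41 genes with a promoter held an E2F-type word (36.6%), 8 a CHR word (19.5%) and 26 a CCAAT box (63.4%). In the mitosis list 3 of 48 held an E2F-type word (6.25%), 33 a CHR word (68.8%) and 35 a CCAAT box (72.9%). The CCAAT box was in 14 of 16 cholesterol synthesis promoters (87.5%) and 13 of 44 ribosome biogenesis promoters (29.5%). Of the 608 genes with a promoter that rose at least 2-fold 78 held an E2F-type word (12.8%), and of the 274 that fell at least 2-fold 10 did (3.65%). Among the immediate early factors 1 of 18 promoters held an E2F-type word and 2 a CHR word. A match is a description of the letters and not evidence that a factor binds there. Capitals mark the E2F-type words in the promoters of Cdc6 (chr11:98907901-98908200, plus strand), Mcm5 (chr8:75109259-75109558, plus strand, where 2 words overlap in a run of 12 bases) and E2f2 (chr4:136172024-136172323, plus strand), and the CHR words and CCAAT boxes in those of Mki67 (chr7:135716330-135716629, minus strand) and Cdk1 (chr10:69352863-69353162, minus strand).
Cdc6: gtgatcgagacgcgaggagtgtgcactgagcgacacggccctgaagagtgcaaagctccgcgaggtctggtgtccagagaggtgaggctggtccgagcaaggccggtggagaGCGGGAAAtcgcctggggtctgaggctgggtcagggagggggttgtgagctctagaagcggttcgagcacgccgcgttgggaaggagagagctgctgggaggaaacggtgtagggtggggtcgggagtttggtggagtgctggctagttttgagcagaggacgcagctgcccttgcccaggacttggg
Mcm5: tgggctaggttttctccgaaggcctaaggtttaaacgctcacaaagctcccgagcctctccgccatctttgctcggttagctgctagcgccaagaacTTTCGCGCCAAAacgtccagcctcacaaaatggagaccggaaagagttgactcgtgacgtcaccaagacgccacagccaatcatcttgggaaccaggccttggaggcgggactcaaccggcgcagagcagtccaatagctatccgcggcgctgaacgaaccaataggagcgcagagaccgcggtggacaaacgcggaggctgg
E2f2: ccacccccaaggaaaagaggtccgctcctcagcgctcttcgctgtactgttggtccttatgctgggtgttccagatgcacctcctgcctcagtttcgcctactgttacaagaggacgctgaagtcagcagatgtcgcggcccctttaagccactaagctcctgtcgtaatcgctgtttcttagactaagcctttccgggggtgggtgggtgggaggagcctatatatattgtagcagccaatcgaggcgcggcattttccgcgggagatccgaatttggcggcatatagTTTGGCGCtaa
Mki67: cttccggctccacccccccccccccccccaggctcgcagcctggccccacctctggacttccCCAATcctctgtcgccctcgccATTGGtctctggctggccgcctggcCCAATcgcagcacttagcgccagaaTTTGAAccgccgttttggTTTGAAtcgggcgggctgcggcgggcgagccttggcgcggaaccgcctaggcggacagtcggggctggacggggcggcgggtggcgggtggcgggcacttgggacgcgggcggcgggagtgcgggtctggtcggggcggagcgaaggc
Cdk1: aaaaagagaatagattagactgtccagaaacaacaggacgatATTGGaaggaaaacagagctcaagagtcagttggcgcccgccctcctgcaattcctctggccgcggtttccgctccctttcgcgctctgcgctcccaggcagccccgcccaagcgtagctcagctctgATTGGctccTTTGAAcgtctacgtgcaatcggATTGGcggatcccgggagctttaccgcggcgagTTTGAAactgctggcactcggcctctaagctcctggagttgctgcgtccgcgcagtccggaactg

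The E2F-type word of Cdc6 begins 138 bases before the start site and that of E2f2 40 bases after it, and the overlapping words of Mcm5 begin 153 and 149 bases before it. Mki67 has CHR words 116 and 98 bases before the start and CCAAT boxes 188, 166 and 141 bases before it. In Cdk1 the CHR words begin 71 and 15 bases before the start, with CCAAT boxes at 208, 80 and 48 bases before it and, not in capitals, 1 E2F-type word at 131 bases.

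**Figure D2:**
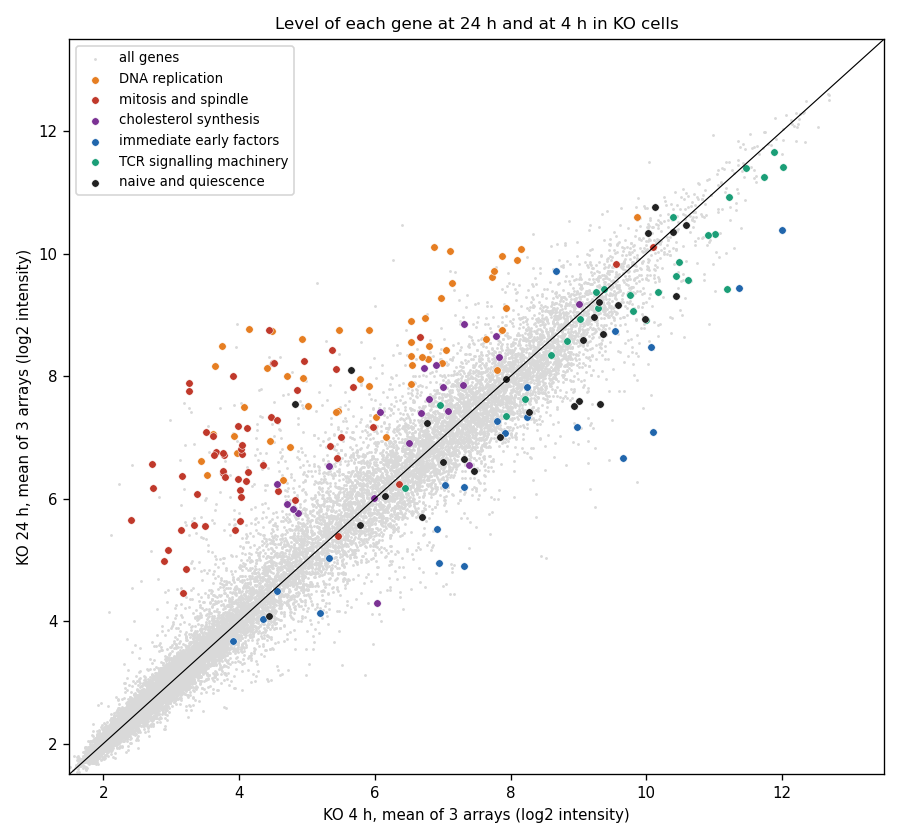
Mean level of each gene over 3 arrays in KO 24 h cells (y axis) against KO 4 h cells (x axis), both as log2 intensity, with all genes in grey, 6 lists in colour and the line of equal levels. All replication genes and 56 of 58 mitosis genes lie above the line, as does 1 of 22 immediate early factors.

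The immediate early transcription factors moved the other way. Of 22 measured 17 fell and 1 rose, against 13.0% and 15.3% of all genes, with a median of -0.99. The list averaged 6.70, 6.60 and 6.65 on the KO 24 h arrays, against 7.59, 7.93 and 7.86 on the KO 4 h arrays. Nr4a2, a nuclear receptor induced by receptor signals, was at 6.95, 7.16 and 7.15 in KO 24 h cells, against 9.69, 10.31 and 10.31 in KO 4 h cells (-3.02, SE 0.20, adjusted p = 2.31e-12). Its relative Nr4a1 was at 10.49, 10.26 and 10.43 in KO 24 h cells, against 11.89, 12.04 and 12.09 in KO 4 h cells (-1.61). The AP-1 member Fosl2 was at 6.86, 6.60 and 6.55 in KO 24 h cells, against 9.55, 9.67 and 9.75 in KO 4 h cells (-2.99, SE 0.09). Fos was at 4.96, 4.76 and 4.96 in KO 24 h cells, against 6.84, 7.54 and 7.55 in KO 4 h cells (-2.41), with KO cells at 0 h at 9.22, 8.89 and 8.50, higher than at 4 h or 24 h. The zinc finger factors Egr1 (-1.59, SE 0.12) and Egr2 (-1.81, SE 0.1) fell, Egr2 to 7.22, 7.02 and 7.27 in KO 24 h cells, against 8.87, 9.08 and 8.98 in KO 4 h cells and 6.03, 6.11 and 5.94 in KO cells at 0 h. The member that rose was Jund, an AP-1 subunit that restrains proliferation in many cells, at 9.73, 9.73 and 9.67 in KO 24 h cells, against 8.74, 8.70 and 8.56 in KO 4 h cells (1.04, SE 0.059).

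Genes that limit the signal fell in larger number than they rose. Of 27 feedback phosphatases and regulators 14 fell and 5 rose (median -0.47). Rgs2, which ends signals from G protein-coupled receptors, was at 6.83, 7.40 and 7.24 in KO 24 h cells, against 9.07, 9.31 and 9.28 in KO 4 h cells (-2.06, SE 0.15), Rgs16 of the same family fell by 1.39, the ERK pathway inhibitor gene Spred1 by 1.36 and the MAP kinase phosphatase gene Dusp1 by 1.27. The risen members included Socs2 and Cish, both induced by cytokines that signal through STAT5. Socs2 was at 6.43, 6.10 and 5.51 in KO 24 h cells, against 3.48, 3.49 and 3.55 in KO 4 h cells (2.50, SE 0.16). Cish was at 7.67, 7.40 and 7.37 in KO 24 h cells, against 5.68, 6.11 and 6.11 in KO 4 h cells (1.51, SE 0.15). Both had no overlap between the times. Of 17 NF-kappa-B subunits and targets 10 fell and 1 rose (median -0.26). Tnfaip3, the enzyme A20 that ends NF-kappa-B signalling, was at 8.18, 8.22 and 8.17 in KO 24 h cells, against 9.65, 9.87 and 9.90 in KO 4 h cells (-1.61, SE 0.13), and Nfkbiz and Nfkbid, nuclear relatives of the inhibitor, fell by 0.94 and 0.90. The risen gene was Bcl3, a further nuclear member of that family (1.16, SE 0.17).

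**Figure D3:**
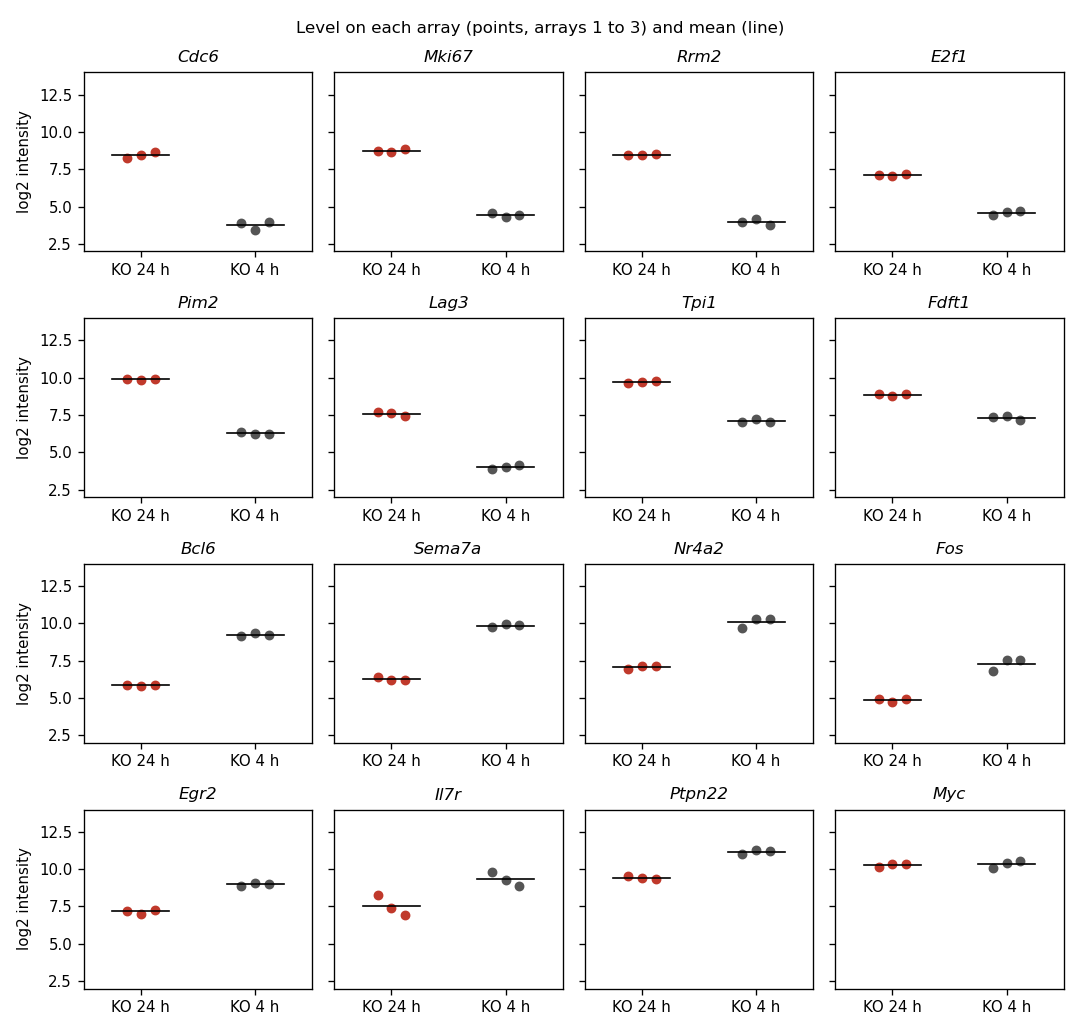
Level of 16 genes (log2 intensity, y axis) on each of the 3 KO 24 h arrays (red, left) and the 3 KO 4 h arrays (grey, right), with the mean as a line. In the first 8 genes the 24 h arrays are higher, in the next 7 lower, and Myc overlaps.

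Among the lowest changes of all genes were several surface molecules and regulators. Sema7a, a membrane-bound semaphorin, was at 6.42, 6.20 and 6.19 in KO 24 h cells, against 9.75, 9.96 and 9.89 in KO 4 h cells, the largest fall of all genes tested (-3.59, SE 0.15, adjusted p = 2.11e-16). Plaur, the urokinase receptor, was at 5.24, 4.76 and 5.10 in KO 24 h cells, against 8.28, 8.63 and 8.67 in KO 4 h cells (-3.49, SE 0.15). Bcl6, the repressor that directs T follicular helper cells, was at 5.90, 5.81 and 5.87 in KO 24 h cells, against 9.17, 9.35 and 9.22 in KO 4 h cells (-3.39, SE 0.11), while KO cells at 0 h had 7.24, 7.36 and 7.06. For all 3 genes the times did not overlap, and the KO 24 h arrays of Bcl6 lay below its KO arrays of 0 h as well. Ramp3, a partner protein of calcitonin-type receptors, fell by 3.38, Cd24a, a small adhesion molecule on a lipid anchor, by 3.02, F2r, a thrombin receptor, by 2.83, Xdh, xanthine dehydrogenase of purine breakdown, by 2.73 and Bach1, a repressor of haem-responsive genes, by 2.67. The phosphatase subunit gene Ppp2r3a (-2.67) and the ubiquitin ligase gene Rnf149 (-2.56) complete the 12.

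Of 26 genes of the T cell receptor machinery, which both carry and restrain its signal, 20 fell and 2 rose, beside 13.0% and 15.3% of all genes (median -0.46), and the list averaged 9.52, 9.39 and 9.42 on the KO 24 h arrays, against 9.88, 9.92 and 9.86 on the KO 4 h arrays. Ptpn22, a phosphatase that damps receptor kinases, was at 9.53, 9.39 and 9.33 in KO 24 h cells, against 10.99, 11.31 and 11.25 in KO 4 h cells (-1.77, SE 0.093, adjusted p = 4.1e-14), with 9.86, 9.65 and 9.91 in KO cells at 0 h. Cd2, an adhesion and costimulatory receptor, was at 9.18, 8.81 and 8.78 in KO 24 h cells, against 10.03, 10.001 and 9.95 in KO 4 h cells (-1.07, SE 0.084). Cblb, a ubiquitin ligase that raises the threshold of activation, fell by 1.04 and Prkcq, the protein kinase C theta of the synapse, by 0.79. Besides Cd4 the gene that rose was Themis, an adaptor that tunes receptor signals in thymocytes (0.56, SE 0.11).

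Genes of the naive and quiescent state fell in most cases. Of 27 measured 15 fell and 5 rose (median -0.40). Il7r, the receptor for the survival factor interleukin 7, was at 8.30, 7.42 and 6.91 in KO 24 h cells, against 9.78, 9.30 and 8.85 in KO 4 h cells (-1.77, SE 0.22, adjusted p = 3.21e-07), and at 10.75, 10.76 and 10.94 in KO cells at 0 h. S1pr1, the receptor that lets T cells leave lymph nodes, was at 8.09, 7.40 and 7.31 in KO 24 h cells, against 9.21, 9.04 and 8.76 in KO 4 h cells (-1.40). Klf2, the factor that maintains its expression, was at 6.97, 6.34 and 6.06 in KO 24 h cells, against 7.74, 7.51 and 7.15 in KO 4 h cells (-1.01, SE 0.18). In all 3 genes the times did not overlap, and KO array 1 was the highest at both times. Btg2, an antiproliferative gene (-1.42), and Satb1, an organiser of T cell chromatin (-1.13), fell too. The exceptions included Igfbp4, a binding protein of insulin-like growth factors, at 7.73, 7.43 and 7.49 in KO 24 h cells, against 5.15, 4.62 and 4.70 in KO 4 h cells (2.73, SE 0.14), Dapl1 (2.45) and Ccr7, the receptor that guides T cells to the T zone, at 10.83, 10.79 and 10.67 in KO 24 h cells, against 10.01, 10.18 and 10.18 in KO 4 h cells (0.64, SE 0.073). Of the 8 Gimap genes, GTPases that support lymphocyte survival, 5 fell and 0 rose (median -0.52), with Gimap6 at -1.10 and Gimap5 at -1.04.

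Mitochondrial genes rose as groups by modest amounts. Of 50 genes of oxidative phosphorylation 40 rose and 0 fell (median 0.46), of 25 genes of the tricarboxylic acid cycle 18 rose and 0 fell (median 0.45), of 47 mitochondrial ribosomal protein genes 30 rose and 1 fell (median 0.34), and of 21 genes of fatty acid oxidation 15 rose and 2 fell (median 0.51). Atp5g2, a subunit of the ring of ATP synthase, was at 10.85, 10.91 and 10.95 in KO 24 h cells, against 9.98, 9.90 and 9.76 in KO 4 h cells (1.02, SE 0.066, adjusted p = 2.46e-12), and Ndufa10 of complex I rose by 0.92. Idh2, the mitochondrial isocitrate dehydrogenase, was at 8.04, 8.13 and 7.88 in KO 24 h cells, against 6.20, 6.54 and 6.21 in KO 4 h cells (1.70, SE 0.11), Sdhd of complex II rose by 1.32 and Cs, citrate synthase, by 0.82. Hadh, which catalyses a dehydrogenation of fatty acid oxidation, was at 9.20, 9.16 and 9.09 in KO 24 h cells, against 6.01, 6.31 and 5.69 in KO 4 h cells (3.14, SE 0.12), far above the other members of its list. Acads, a short-chain dehydrogenase, rose by 1.24 and Acadm, the medium-chain enzyme, by 0.70, while Acsl4, which activates polyunsaturated fatty acids, was the lowest of the list at -1.11. With arrays 1 and 2 alone 16 of the 47 mitochondrial ribosomal protein genes rose.

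Lipid synthesis rose with them. Of 21 genes of cholesterol synthesis and its control 18 rose and 2 fell (median 0.83, list mean 7.17, 7.17 and 7.21 on the KO 24 h arrays, against 6.61, 6.50 and 6.42 on the KO 4 h arrays). Fdft1, squalene synthase, was at 8.93, 8.76 and 8.90 in KO 24 h cells, against 7.35, 7.42 and 7.17 in KO 4 h cells (1.54, SE 0.11, adjusted p = 2.54e-11), Mvd, mevalonate diphosphate decarboxylase, at 6.34, 6.10 and 6.27 in KO 24 h cells, against 4.79, 4.57 and 4.34 in KO 4 h cells (1.68). Sqle, squalene epoxidase, rose by 0.82. The 2 members that fell were Abca1 and Abcg1, transporters that export cholesterol and not enzymes that make it. Abca1 was at 4.12, 4.23 and 4.55 in KO 24 h cells, against 5.92, 5.60 and 6.56 in KO 4 h cells (-1.73, SE 0.19) and Abcg1 fell by 0.84. Of 13 fatty acid synthesis genes 8 rose and 0 fell (median 0.36), with the desaturase gene Fads1 at 1.65 and the elongase gene Elovl6 at 1.14.

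Sugar and amino acid genes were divided. Of 23 genes of glycolysis and the pentose phosphate path 14 rose and 5 fell (median 0.49). Tpi1, triose phosphate isomerase, was at 9.64, 9.71 and 9.80 in KO 24 h cells, against 7.06, 7.20 and 7.06 in KO 4 h cells (2.61, SE 0.10) and Hk2, hexokinase 2, rose by 0.97. Slc2a1, the main glucose transporter of activated T cells, was at 8.62, 8.65 and 8.81 in KO 24 h cells, against 8.75, 8.89 and 8.76 in KO 4 h cells (-0.10, adjusted p = 0.393), with overlapping arrays, and Ldha, lactate dehydrogenase, at 7.46, 7.45 and 7.72 in KO 24 h cells, against 7.23, 7.40 and 7.26 in KO 4 h cells (0.25, adjusted p = 0.0605). Without KO 4 h array 2 the value of Ldha was 0.30 and passed. Pfkfb3, which makes the activator of phosphofructokinase (-1.12), and the lactate exporter gene Slc16a3 (-1.05) fell. Of 13 amino acid transporter genes 3 rose and 5 fell. Slc43a3, listed with them although it carries purine bases, was at 8.003, 8.31 and 8.62 in KO 24 h cells, against 4.47, 4.73 and 4.61 in KO 4 h cells (3.71, SE 0.16), while Slc7a1, for cationic amino acids (-1.15), Slc1a5, for glutamine (-0.93), and Slc3a2, the shared heavy chain of several carriers (-0.76), fell. Of 22 ATF4 targets and one-carbon enzymes 10 rose and 2 fell. Psph (1.46) and Phgdh (1.07) of serine synthesis and Asns, asparagine synthetase (1.002), rose, and the stress factor genes Ddit3 (-0.72) and Atf4 (-0.32) fell.

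Genes that build ribosomes did not move with the cell cycle genes. Of 49 genes of ribosome biogenesis 19 fell and 7 rose (median -0.17), and none changed 2-fold. Ddx10, an RNA helicase of the small subunit, was at 8.11, 8.11 and 8.25 in KO 24 h cells, against 8.93, 9.07 and 9.16 in KO 4 h cells (-0.90, SE 0.085, adjusted p = 3.15e-09). Pwp2 fell by 0.85 and Noc3l by 0.80, while Polr1c, a subunit of RNA polymerase I and III, rose by 0.60. Ncl, nucleolin, was at 10.87, 10.79 and 11.02 in KO 24 h cells, against 10.75, 10.80 and 10.94 in KO 4 h cells (0.07, adjusted p = 0.591). Myc, the transcription factor behind much of this programme, was at 10.17, 10.32 and 10.33 in KO 24 h cells, against 10.07, 10.44 and 10.52 in KO 4 h cells (-0.07, adjusted p = 0.655), above its level in KO cells at 0 h (8.61, 8.83 and 8.89) at both times. Without KO 4 h array 1 its value was -0.21 and passed, and without KO 4 h array 3 it was 0.02. In the MYC network of 12 genes 3 rose and 3 fell, with the MAX partner gene Mnt, a repressor, at -1.02. Of 30 proteasome genes 18 rose and 0 fell (median 0.23), of 18 tRNA synthetase genes 6 rose and 1 fell, and of 26 chaperone genes 10 rose and 5 fell. The inducible heat shock gene Hspa1a was at 4.10, 3.72 and 3.06 in KO 24 h cells, against 5.14, 6.35 and 6.43 in KO 4 h cells (-2.34, SE 0.28) with a wide spread within each time.

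Of 30 measured cytokine genes 5 rose (16.7%) and 2 fell (6.67%), beside 15.3% and 13.0% of all genes (median 0.06). The mean over the 6 KO arrays lay below 3.24 for 11 of the 30, a range where RMA compresses differences. Il2, the growth factor of activated T cells, was at 7.52, 8.05 and 8.16 in KO 24 h cells, against 6.74, 6.59 and 7.09 in KO 4 h cells (1.10, SE 0.18, adjusted p = 1.81e-05). Lta, lymphotoxin alpha, was at 8.07, 7.83 and 7.89 in KO 24 h cells, against 6.74, 7.34 and 7.16 in KO 4 h cells (0.85, SE 0.18). Tnf was at 10.30, 10.21 and 10.14 in KO 24 h cells, against 10.79, 11.12 and 10.92 in KO 4 h cells (-0.72, SE 0.096). In these 3 genes the times did not overlap, with Il2 and Lta higher and Tnf lower at 24 h. The lineage cytokine genes Ifng (0.09, adjusted p = 0.732), Il4 (0.09, adjusted p = 0.555), Il17a (-0.06, adjusted p = 0.82), Il21 (-0.13, adjusted p = 0.552) and Il10 (0.02, adjusted p = 0.93) did not pass, and their mean levels reached at most 4.10 (Ifng at 24 h). Csf2 (0.38, adjusted p = 0.192) did not pass, and the call of Il3 (0.75, adjusted p = 0.0362) ended without any 1 of KO 24 h arrays 2 and 3 and KO 4 h arrays 1 and 3. Among 16 chemokine genes 3 rose (18.8%) and 3 fell (18.8%), shares near those of all genes. Ccl3, an inflammatory chemokine, was at 7.70, 8.38 and 7.96 in KO 24 h cells, against 6.70, 6.46 and 6.79 in KO 4 h cells (1.36, SE 0.16). Ccl22, a ligand of CCR4, was at 7.71, 5.33 and 7.59 in KO 24 h cells, against 3.14, 3.24 and 3.25 in KO 4 h cells (3.67, SE 0.46), with KO 24 h array 2 well below the other two. Xcl1, a ligand for dendritic cells, was at 7.32, 8.23 and 7.92 in KO 24 h cells, against 8.48, 9.48 and 9.24 in KO 4 h cells (-1.24, SE 0.23).

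Of 28 cytokine receptor genes 7 rose and 11 fell, and 4 had a mean below 3.24 over the 6 KO arrays. Il12rb1, a shared chain of the receptors for interleukins 12 and 23, was at 7.65, 7.48 and 7.62 in KO 24 h cells, against 4.84, 4.42 and 4.29 in KO 4 h cells (3.07, SE 0.19, adjusted p = 8.23e-13). The interleukin 2 receptor chains rose, Il2rb to 9.67, 9.44 and 9.43 in KO 24 h cells, against 8.43, 8.41 and 8.12 in KO 4 h cells (1.19, SE 0.097), and Il2ra to 10.95, 10.91 and 10.89 in KO 24 h cells, against 10.05, 10.29 and 10.47 in KO 4 h cells (0.65, SE 0.11). Il18r1 of the interleukin 18 receptor (-1.56), Ifngr1 of the interferon gamma receptor (-1.38) and Il21r (-1.23) fell. Of 14 JAK and STAT genes with their partners 3 rose (21.4%) and 5 fell (35.7%). Pim2, a survival kinase induced through STAT5, was at 9.92, 9.88 and 9.92 in KO 24 h cells, against 6.35, 6.26 and 6.20 in KO 4 h cells (3.64, SE 0.077, adjusted p = 1.74e-21), a change of 12.4-fold, whereas Stat5b fell by 0.72 and Stat6 by 0.48.

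Chemokine receptors and integrins rose in 5 (21.7%) and fell in 7 (30.4%) of 23 cases, beside 15.3% and 13.0% of all genes. Ccr4, a receptor of skin-homing and regulatory T cells, was at 6.79, 7.26 and 7.21 in KO 24 h cells, against 4.70, 5.24 and 4.87 in KO 4 h cells (2.15, SE 0.16). Cxcr4, the receptor for CXCL12, was at 5.63, 5.21 and 5.42 in KO 24 h cells, against 7.72, 7.64 and 7.74 in KO 4 h cells (-2.28, SE 0.20). Ccr8 fell by 2.27 and Cxcr3 by 1.67. The 24 genes of the TNF superfamily held 7 that rose (29.2%) and 11 that fell (45.8%). Tnfrsf4, which encodes OX40 and prolongs the T cell response, was at 10.07, 10.22 and 10.28 in KO 24 h cells, against 8.92, 8.79 and 9.25 in KO 4 h cells (1.20, SE 0.1). Cd40lg, the ligand by which helper cells instruct B cells, was at 8.84, 8.71 and 8.58 in KO 24 h cells, against 10.33, 10.39 and 10.35 in KO 4 h cells (-1.65, SE 0.12). Tnfrsf9, which encodes 4-1BB, fell by 1.20 and Fasl, the ligand of the death receptor FAS, by 1.30. Of 14 costimulatory receptors and early activation markers 3 rose and 7 fell. Cd226, an activating receptor for nectin-like ligands, was at 8.43, 8.54 and 8.73 in KO 24 h cells, against 5.12, 5.29 and 5.41 in KO 4 h cells (3.29, SE 0.12), with KO cells at 0 h at 7.88, 7.995 and 7.83. Cd69, which retains activated cells in lymphoid tissue, was at 9.88, 9.82 and 9.92 in KO 24 h cells, against 10.49, 10.69 and 10.58 in KO 4 h cells (-0.71, SE 0.062). Tfrc, the transferrin receptor, rose by 0.60. Cd44, a hyaluronan receptor that marks activated cells, was at 6.13, 6.66 and 6.63 in KO 24 h cells, against 6.12, 6.21 and 6.17 in KO 4 h cells (0.31, adjusted p = 0.0601). This value passed the threshold without KO 24 h array 1 (0.48).

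Of 15 inhibitory receptor genes 4 rose and 6 fell. Lag3, which competes with CD4 for class II molecules, was at 7.68, 7.63 and 7.41 in KO 24 h cells, against 3.90, 4.02 and 4.14 in KO 4 h cells (3.55, SE 0.15, adjusted p = 2.51e-16). Ctla4, which competes with CD28 for its ligands, was at 7.62, 7.56 and 7.81 in KO 24 h cells, against 6.29, 6.18 and 6.07 in KO 4 h cells (1.48, SE 0.096). Cd200 rose by 1.07. Vsir, which encodes the quiescence checkpoint VISTA, was at 9.47, 9.30 and 9.42 in KO 24 h cells, against 10.96, 11.11 and 10.98 in KO 4 h cells (-1.62, SE 0.083). Cd274, which encodes PD-L1, fell by 1.22. None of these 5 genes had overlapping arrays.

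Among 32 activation and lineage factors 7 rose (21.9%) and 13 fell (40.6%), beside 15.3% and 13.0% of all genes. Beside Bcl6, Runx1, a factor of T cell identity, was at 7.98, 7.67 and 7.62 in KO 24 h cells, against 9.31, 9.84 and 9.85 in KO 4 h cells (-1.91, SE 0.12). Nfatc1, a calcium-driven factor, fell by 1.43 and Ikzf3 by 1.26. Batf, an AP-1 partner needed for effector differentiation, was at 7.12, 7.05 and 7.16 in KO 24 h cells, against 5.77, 5.99 and 5.69 in KO 4 h cells (1.29, SE 0.11). Id3 rose by 1.07. Irf4 (-0.23, adjusted p = 0.161), Gata3 (-0.11, adjusted p = 0.63) and Tbx21 (0.10, adjusted p = 0.776) did not pass, and Irf4 passed without KO 4 h array 1 (-0.33). Regulatory T cell genes rose in 10 (52.6%) and fell in 4 (21.1%) of 19 cases (median 0.62). Foxp3, their lineage factor, was at 8.78, 8.01 and 8.36 in KO 24 h cells, against 7.39, 6.76 and 6.74 in KO 4 h cells (1.42, SE 0.24, adjusted p = 3.69e-05), highest on KO array 1 at both times, and Gpr83 rose by 1.22. Nt5e, which encodes CD73, fell by 1.51. Some of the genes counted there, such as Ctla4 and Socs2, are also induced in conventional T cells. Of 16 cytotoxic granule genes 5 rose (31.2%) and 5 fell (31.2%). Gzmb, granzyme B, was at 4.74, 4.42 and 4.79 in KO 24 h cells, against 2.62, 2.28 and 2.78 in KO 4 h cells (2.10, SE 0.14). Prf1, perforin, was at 4.83, 4.57 and 4.44 in KO 24 h cells, against 7.63, 7.16 and 6.35 in KO 4 h cells (-2.44, SE 0.22).

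Interferon-stimulated genes moved in both directions. Of 31 measured 9 rose (29.0%) and 5 fell (16.1%), beside 15.3% and 13.0% of all genes (median -0.03). Of the 31, 4 rose and 1 fell by 2-fold or more, beside 3.38% and 1.67% of all genes. Zbp1, a sensor of left-handed nucleic acids, was at 8.75, 8.12 and 8.31 in KO 24 h cells, against 7.13, 6.83 and 6.50 in KO 4 h cells (1.57, SE 0.14). Samhd1, a deoxynucleotide hydrolase that restricts retroviruses, rose by 1.28. Ifih1, the sensor MDA5 of double-stranded RNA, was at 5.65, 5.27 and 5.27 in KO 24 h cells, against 7.19, 7.12 and 6.82 in KO 4 h cells (-1.65, SE 0.14, adjusted p = 5.59e-10). Ddx58, the related sensor RIG-I, fell by 0.96. Usp18, which ends interferon receptor signals, was at 8.46, 7.60 and 7.64 in KO 24 h cells, against 8.44, 8.08 and 8.08 in KO 4 h cells (-0.30, adjusted p = 0.17), a value that passed without KO 24 h array 1 (-0.58). Among 18 p53 targets 2 rose and 8 fell, with Trp53inp1, a stress-induced partner of p53, at 8.69, 8.49 and 8.46 in KO 24 h cells, against 9.73, 9.74 and 9.61 in KO 4 h cells (-1.15, SE 0.082). The call of Cdkn1a, which encodes p21 (-0.45, adjusted p = 0.0204), ended without any 1 of KO 24 h arrays 1 and 2 and KO 4 h array 3. Of 22 genes of the BCL2 family and apoptosis 5 rose (22.7%) and 4 fell (18.2%), beside 15.3% and 13.0% of all genes. Bcl2l1, which encodes the survival protein BCL-XL, was at 7.14, 7.01 and 7.42 in KO 24 h cells, against 5.64, 5.83 and 6.14 in KO 4 h cells (1.32, SE 0.12). Cflar, an inhibitor of caspase 8, fell by 0.74.

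Of 28 genes in the list of Trim28 and its partners in silencing or in heterochromatin 10 rose (35.7%) and 4 fell (14.3%, median 0.14). Cbx5, which encodes HP1 alpha, was at 8.35, 8.28 and 8.41 in KO 24 h cells, against 6.35, 6.45 and 6.63 in KO 4 h cells (1.87, SE 0.094, adjusted p = 1.41e-14). Cbx3, which encodes HP1 gamma, rose by 1.29 and Dnmt1, the maintenance DNA methyltransferase, was at 9.83, 9.87 and 10.01 in KO 24 h cells, against 8.16, 8.13 and 8.02 in KO 4 h cells (1.80, SE 0.062). Tasor, a subunit of the silencing complex HUSH, was at 7.64, 7.31 and 7.54 in KO 24 h cells, against 8.53, 8.62 and 8.89 in KO 4 h cells (-1.18, SE 0.10). Atf7ip, the partner of the methyltransferase SETDB1, fell by 0.95. Uhrf1, described above with replication, is also in this list. Of 23 imprinted genes 0 rose and 8 fell (34.8%), beside 15.3% and 13.0% of all genes. The mean over the 6 KO arrays lay below 3.24 for 10 of the 23, where RMA compresses differences. Igf2r, the receptor that removes insulin-like growth factor 2, was at 7.11, 7.08 and 7.19 in KO 24 h cells, against 7.85, 8.07 and 8.02 in KO 4 h cells (-0.86, SE 0.084). Impact, a regulator of the kinase GCN2, fell by 0.66.

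The same step was tested for a difference from WT cells. In WT cells 7239 genes passed the threshold between 24 h and 4 h (32.6%), 4698 higher (21.2%) and 2541 lower (11.5%). This split depended on the scaling, since after quantile normalization run again 7489 passed and 47.0% of them, against 64.9% in the values as deposited, were higher. Of the genes that rose in KO cells 2956 rose in WT cells as well (87.1% of the KO and 62.9% of the WT genes), of those that fell 1884 did (65.2% of the KO and 74.1% of the WT genes), and 27 passed in opposite directions. The difference between the steps passed for 494 genes (2.23%), 143 with the KO step above the WT step (0.645%) and 351 with the KO step below it (1.58%). This split moved with the scaling too: after quantile normalization run again 432 genes passed and 60.9% of them, against 28.9% in the values as deposited, had the KO step above the WT step. The count also moved with the arrays and groups used, to 184 in a fit of only these 4 groups, 190 with arrays 1 and 2 alone, 273 and 324 without KO 24 h array 1 or 2, 297 without WT 24 h array 1 and 288 without WT 4 h array 1. Markers of other cells were compared between the genotypes by their levels alone. The B cell list averaged 4.451 to 5.121 in KO 24 h and 3.771 to 4.057 in WT 24 h cells, and 4.487 to 5.073 in KO 4 h and 3.816 to 4.56 in WT 4 h cells. The myeloid list averaged 3.273 to 3.46 in KO 24 h and 3.187 to 3.265 in WT 24 h cells, and 3.534 to 4.08 in KO 4 h and 3.093 to 3.607 in WT 4 h cells. In both lists the KO arrays lay above the WT arrays at 24 h and overlapped with them at 4 h. The KO step lay below the WT step in 17 of the 19 myeloid markers (median difference -0.36) and 6 of the 14 B cell markers, beside 61.9% of all genes. This lean was not particular to the myeloid list. It was found in 47 of 49 ribosome biogenesis genes and 46 of 47 mitochondrial ribosomal protein genes, but in only 5 of 26 genes of the T cell receptor machinery. These counts of signs were made in the values as deposited alone, where the median difference over all genes was -0.065. Whether they move with the scaling was not tested. The difference passed for 1 of the 14 B cell markers, Ly6d. The part of these cells in the differences was not tested.

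**Figure D4:**
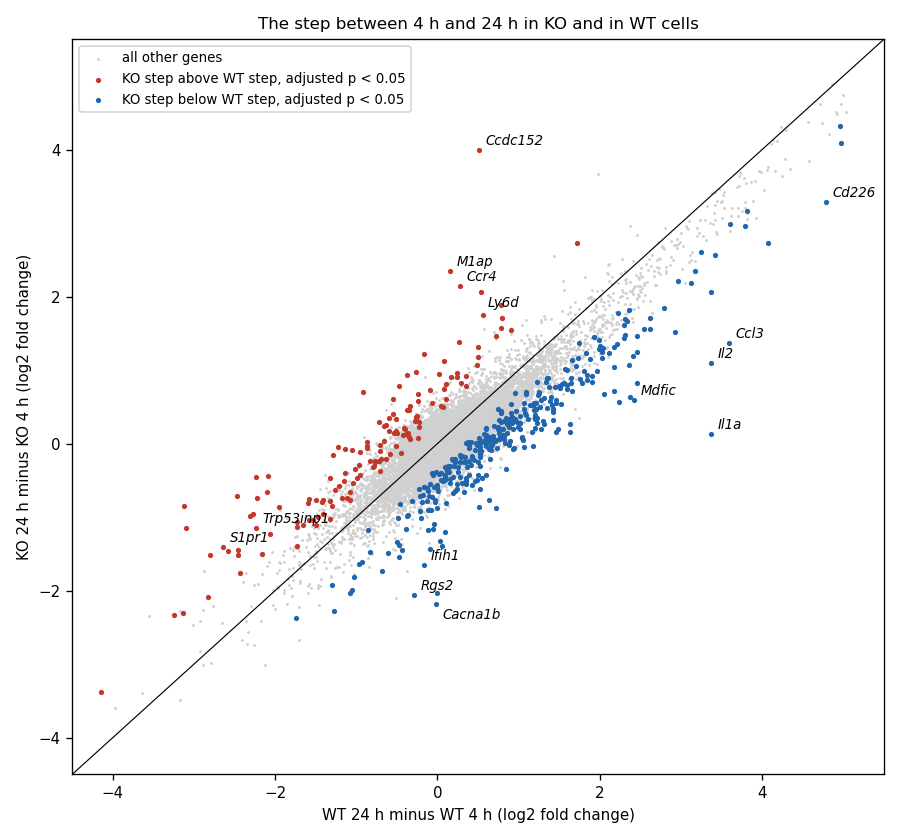
Change between 4 h and 24 h of each gene in KO cells (y axis) against WT cells (x axis), both as log2 fold change of 24 h over 4 h, with the line of equal steps. Genes in red (143) had a KO step above and genes in blue (351) a KO step below the WT step, and Ccdc152 and Il1a lie farthest from the line on either side.

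The genes whose step was smaller in KO cells included ligands of activated T cells. Il2 changed by 1.10 in KO cells and by 3.37 in WT cells, where it was at 9.90, 9.94 and 9.88 at 24 h and 6.60, 6.13 and 6.88 at 4 h, a difference of -2.27 (SE 0.25, adjusted p = 4.72e-06). At 4 h the KO and WT arrays of Il2 overlapped, and at 24 h they did not. Il1a, an alarm cytokine, stayed near the floor in KO cells, at 2.19, 2.27 and 2.28 in KO 24 h cells, against 2.15, 2.005 and 2.21 in KO 4 h cells, while WT cells had 5.33, 5.64 and 5.53 at 24 h and 2.01, 2.07 and 2.29 at 4 h (difference -3.25, SE 0.17, adjusted p = 3.52e-12). Ccl3 (difference -2.23, SE 0.23), Ccl4, a related chemokine (-1.46), and Pdgfb, a platelet-derived growth factor chain (-1.74), had smaller steps in KO cells too. So did the receptor genes Cd226 (-1.49, SE 0.17), Cd200 (-1.29), Slamf6 (-0.95) and Ctla4 (-0.83), and Mdfic, a regulator of transcription factor transport (-1.83). In Cd226 the KO arrays at 4 h, at 5.12, 5.29 and 5.41, lay above the WT arrays of that time, at 3.83, 4.38 and 4.17. In Cd200 and Slamf6 WT cells also rose, by 2.36 and 1.78, against 1.07 and 0.83 in KO cells.

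A further set fell in KO cells with little change in WT cells. Cacna1b, a neuronal calcium channel gene, was at 5.30, 4.72 and 4.80 in KO 24 h cells, against 6.94, 7.20 and 7.21 in KO 4 h cells, and in WT cells at 3.44, 3.25 and 3.27 at 24 h and 3.36, 3.45 and 3.21 at 4 h (difference -2.16, SE 0.24, adjusted p = 4.72e-06). The KO arrays thus approached the WT level at 24 h but stayed above it. Gpr155, an orphan receptor gene, was at 4.81, 4.59 and 4.50 in KO 24 h cells, against 6.83, 6.70 and 6.47 in KO 4 h cells, and in WT cells at 4.92, 4.79 and 5.11 at 24 h and 5.10, 5.03 and 4.71 at 4 h (difference -2.03, SE 0.22). Rgs2 showed a difference of -1.77 (SE 0.21) and Ifih1 of -1.48 (SE 0.20).

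A KO step above the WT step was found for genes that rose more in KO cells and for genes that fell less there. Ccdc152, a coiled-coil gene that overlaps the selenoprotein gene Selenop, was at 6.68, 5.65 and 6.39 in KO 24 h cells, against 2.28, 2.19 and 2.25 in KO 4 h cells, and in WT cells at 2.66, 2.63 and 2.80 at 24 h and 2.13, 2.08 and 2.34 at 4 h (difference 3.49, SE 0.25, adjusted p = 3.86e-09). M1ap, a meiosis gene, was at 5.67, 5.62 and 5.41 in KO 24 h cells, against 3.13, 3.05 and 3.45 in KO 4 h cells, and in WT cells at 3.23, 2.92 and 2.85 at 24 h and 2.72, 2.92 and 2.92 at 4 h (difference 2.20, SE 0.18). Both were near the floor at 4 h in both genotypes, and their KO 24 h arrays lay above all others. Ccr4 reached a similar level at 24 h, at 6.79, 7.26 and 7.21 in KO cells and 6.93, 6.72 and 6.71 in WT cells, but started lower, at 4.70, 5.24 and 4.87 in KO 4 h cells against 6.72, 6.69 and 6.12 in WT 4 h cells (difference 1.88, SE 0.23). Ly6d, a surface protein of early B cells that is also in the B cell marker list, was at 8.24, 7.55 and 7.78 in KO 24 h cells, against 5.89, 5.88 and 5.60 in KO 4 h cells (difference 1.53, SE 0.28), a difference that did not pass with arrays 1 and 2 alone. Trp53inp1 fell by 1.15 in KO cells and changed by -2.24 in WT cells (difference 1.09, SE 0.12), and Satb1 (difference 0.61), Cd2 (0.67), Prkcq (0.63) and Nt5e (0.95) likewise fell less in KO cells. The interferon-inducible genes Ifi209 (difference 1.65) and Ifi214 (1.78) fell in WT cells by 2.09 and 2.23, while KO cells had -0.44 and -0.45 (adjusted p = 0.0273 and 0.165). In KO cells the call of Ifi209 ended without any 1 of KO 24 h arrays 2 and 3 and KO 4 h arrays 1 and 2, and Ifi214 passed without KO 4 h array 3 (-0.72).

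**Figure D5:**
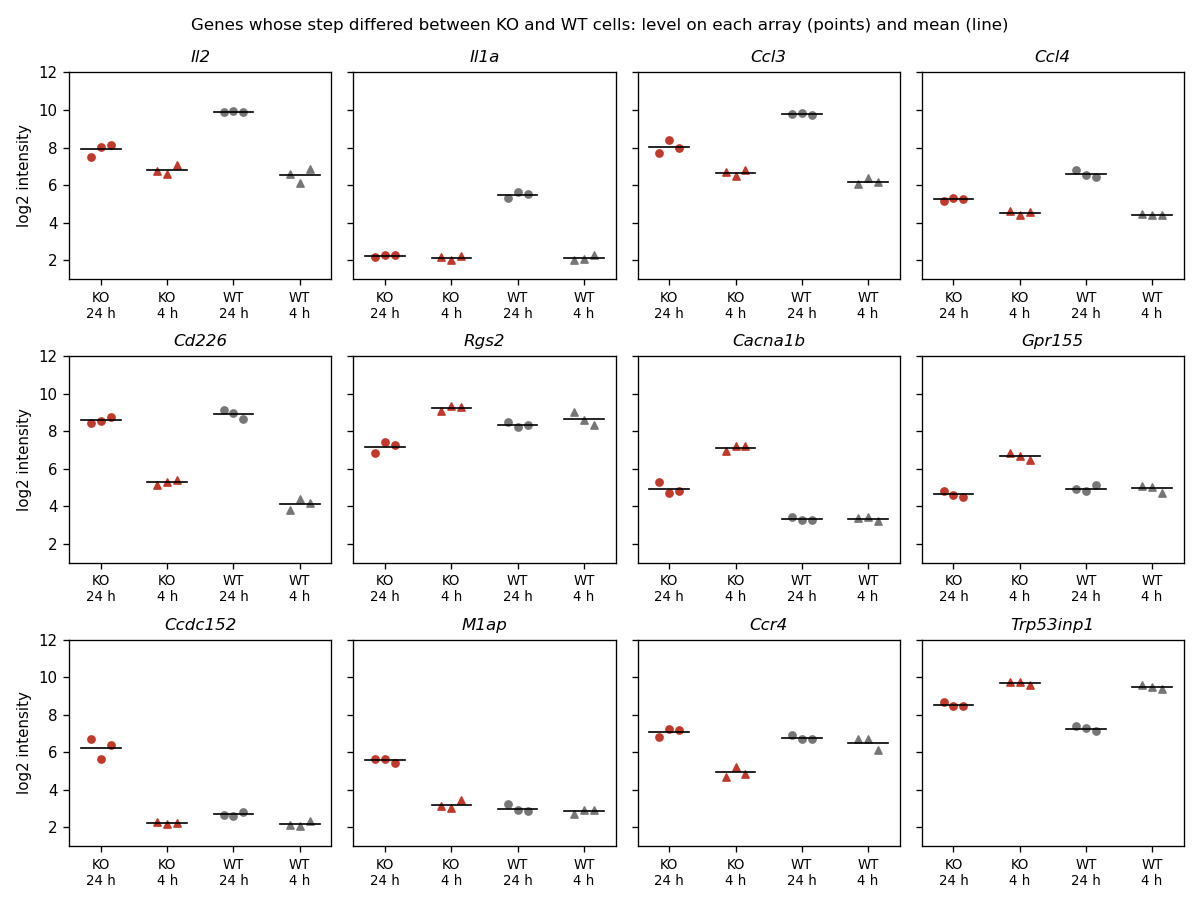
Level of 12 genes (log2 intensity, y axis) on each array of KO 24 h, KO 4 h, WT 24 h and WT 4 h cells (points, 3 arrays each, KO red, WT grey, circles 24 h, triangles 4 h) with the mean as a line. Il1a is high in WT 24 h cells only, and Ccdc152 and M1ap in KO 24 h cells only.

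At the level of lists, the difference passed for 6 genes of the T cell receptor machinery with the KO step above the WT step, for 5 naive and quiescence genes in the same direction, and for 4 inhibitory receptor genes with the KO step below it, beside 0.645% and 1.58% of all genes. After quantile normalization run again these counts were 8, 8 and 4, with arrays 1 and 2 alone 2, 2 and 5, and the naive and quiescence count was 3 without KO 24 h array 1 or KO 4 h array 3. For ribosome biogenesis, where WT cells had 16 genes that rose and 7 that fell (median 0.06), the difference passed for 4 genes with the KO step below the WT step, for 0 after quantile normalization run again, and for 0 without any 1 of KO 24 h array 1, KO 4 h arrays 2 and 3, WT 24 h arrays 1 and 2 and WT 4 h array 1. For 3 of 51 replication genes and 3 of 58 mitosis genes the difference passed with the KO step below the WT step. It passed in the same direction for 4 of 20 repair genes and 2 of 22 G1 genes, beside 1.58% of all genes. With low genes left out it passed in this direction for 568 of 13308 genes, a higher share than over all genes. The replication, mitosis and repair counts were 0, 1 and 1 after quantile normalization run again, and 1, 1 and 2 without KO 24 h array 1 or 2. Past the threshold or not, the KO step lay below the WT step in 47, 48, 18 and 21 members of these 4 lists, beside 61.9% of all genes. These counts of signs too were made in the values as deposited alone.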

How the data were processed

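Expression was measured on 24 arrays of 8 groups (KO and WT cells at 0, 4, 24 and 72 h, 3 arrays each). The deposited values are log2 intensities that the authors normalized by RMA with the R package oligo in R (version 3.1.0), as the tools named per the submitters' processing notes show. For RMA and oligo versions, filters and array batches the sources used here give no entry. RMA brings the distributions of the arrays close together, so a shift of all genes is largely hidden, and it compresses low signals. The table holds no detection calls, and precision is limited by how many arrays there are. Array medians ran from 3.59 to 3.76. Correction of the scanner background and a block for the slide could not be tried on RMA values.

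Of 41345 probe sets 23521 had 1 gene in the platform annotation, 1814 had several and 16010 had none listed. Of those with 1 gene 23328 took their symbol from RefSeq through the Entrez ID. The probe set with the highest mean stood for its gene, which left 22180 genes. The means of the 8 groups were fitted to all 24 arrays with limma 3.58.1 in R 4.3.3 (eBayes with a mean-variance trend, 16 residual and 24.8 total degrees of freedom). Adjusted p-values are Benjamini-Hochberg over all genes, with a threshold of 0.05. The fit was tested on simulated data.

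Genes were named by a rule: the 12 highest and 12 lowest changes without overlap, up to 4 members of each list with the largest changes in each direction, the 8 highest and 8 lowest differences between the KO and the WT step, and a list of known T cell genes. Xist was chosen after its values were seen. Predicted genes, small RNAs and receptor segments were not named. The members and the 53 gene lists were chosen with earlier results of these data known.

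Arrays of KO 24 h and KO 4 h cells with the same number correlated in their deviations from the group means at 0.166, 0.0575 and 0.237, and those of WT cells at -0.0212, 0.0653 and 0.156. The numbers were not taken as pairs in the main fit because the sources do not state that they are animals. Alternatives were a fit of only the groups compared, a replicate block, an average over the probe sets of each gene, a filter at the 40th percentile, quantile normalization run again, eBayes without a trend or robust, leaving out each array, and arrays 1 and 2 alone.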

Additional observations from a re-analysis of the deposited data

Results flagged for a closer look

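The step between 4 h and 24 h differed between KO and WT cells, by limma's test of the difference itself, in 43 of the genes named above, 25 of which are described there with their difference. Each value here is the KO step minus the WT step on the log2 scale. The KO step was smaller or more negative for the ligand genes Il1a (-3.25), Il2 (-2.27), Ccl3 (-2.23), Ccl4 (-1.46) and Pdgfb (-1.74), for the receptor genes Cd226 (-1.49), Cd200 (-1.29), Slamf6 (-0.95) and Ctla4 (-0.83), and for Cacna1b (-2.16), Gpr155 (-2.03), Mdfic (-1.83), Rgs2 (-1.77) and Ifih1 (-1.48).

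The KO step was larger or less negative for Ccdc152 (3.49), M1ap (2.20), Ccr4 (1.88), Ifi214 (1.78), Ifi209 (1.65), Ly6d (1.53), Trp53inp1 (1.09), Nt5e (0.95), Cd2 (0.67), Prkcq (0.63) and Satb1 (0.61). Of these 25 differences 24 passed under every one of the 20 alternatives in which their gene was tested. These alternatives included quantile normalization run again and arrays 1 and 2 alone, which had high Xist. The exception was Ly6d, at 1.26 (adjusted p = 0.0724) with arrays 1 and 2 alone. Il1a and Ccdc152 had means of 2.71 and 2.84 over all arrays, below the level of the low filter (3.24). They were therefore not tested with low genes left out. The part of other cell types was not tested.

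The same test also passed for 18 genes whose KO change alone is given above, and each of these differences ended as a call under at least 1 alternative. The KO step was below the WT step for Tnfaip3 (-0.68), Bcl2l1 (-0.85), Ccna2 (-0.88), Abca1 (-1.04), Batf (-0.74), Brca2 (-0.65), Mki67 (-0.65) and Idh2 (-0.61). It was above the WT step for Gpr83 (1.39), S1pr1 (1.24), Igfbp4 (1.01), Zbp1 (0.79), Ramp3 (0.76), Ptpn22 (0.67), Fdft1 (0.64), Id3 (0.59), Cblb (0.54) and Igf2r (0.44).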

How the results depend on the processing

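The count of genes that changed between KO 24 h and KO 4 h stayed within 1.5 times of 6281, at 5452 to 6509 without any 1 array and 4870 with arrays 1 and 2 alone. The share of higher genes was 54% in the values as deposited and 46.7% after quantile normalization run again, and in WT cells 64.9% and 47.0%, with 3968 WT genes lower against 2541. The WT count ran from 6454 to 7423 without any 1 array. With genotype and replicate number as a replicate block the counts were 6352 in KO cells, 7271 in WT cells and 565 for the difference. In KO cells every array correlated best with its own number, and without genes of X and Y every array but KO 4 h array 2 still did (0.0162 with its own number and 0.0397 with KO 24 h array 3).

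The difference between the steps was less stable than the KO step, with 273 to 706 genes without any 1 array, 184 in a fit of only these groups, 755 with low genes left out and 190 with arrays 1 and 2 alone. Its genes with a KO step above the WT step numbered 143, but 68 in a fit of only these groups, 263 after quantile normalization run again and 58 with arrays 1 and 2 alone (81 to 200 without any 1 array). Those with a KO step below it numbered 351, but 116, 169 and 132 under the same 3 settings and 568 with low genes left out (186 to 506 without any 1 array). The causes were not tested.

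Of 189 genes named above that passed in KO cells 182 passed under every one of the 20 alternatives in which the gene was tested. Of 43 genes whose difference passed 24 did, and 0 of either changed direction. Genes below the level of the low filter, such as Ccdc152, were not tested with low genes left out. Values of uncalled genes near 0 changed sign: without any 1 array Ifng ran from -0.01 to 0.15, Il10 from -0.04 to 0.05 and Myc from -0.21 to 0.02, and Tbx21 and Il10 were both at -0.05 after quantile normalization run again. Signal near the floor limits the lowest genes, whose folds RMA understates.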

Other observations

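Genes of protein folding and secretion fell more often than they rose in KO cells. Of 21 genes 8 were lower (38.1%) and 3 higher (14.3%) at 24 h, beside 13.0% and 15.3% of all genes. Dnajb9, a helper chaperone of the endoplasmic reticulum, was at 6.50, 6.37 and 6.49 in KO 24 h cells, against 7.59, 7.78 and 7.87 in KO 4 h cells (-1.29, SE 0.15), and Hspa5, the chaperone BiP, fell by 0.72, while Sdf2l1, a further protein of that compartment, rose by 1.79. Of 7 polyamine genes 3 fell and 1 rose. Smox, spermine oxidase, was at 4.53, 4.76 and 4.88 in KO 24 h cells, against 6.11, 6.53 and 6.67 in KO 4 h cells (-1.71, SE 0.17), and Odc1, ornithine decarboxylase, fell by 0.62.

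The PI3K, AKT and mTOR list held 5 of 20 genes that rose and 6 that fell. Pik3cd, the catalytic subunit delta of lymphocytes, was at 9.96, 9.93 and 9.93 in KO 24 h cells, against 8.52, 8.21 and 8.02 in KO 4 h cells (1.69, SE 0.084), and Rheb, the GTPase that activates mTOR complex 1, fell by 0.91. Of 29 cytosolic ribosomal protein genes 10 rose and 5 fell, of 18 translation factor genes 6 rose and 5 fell, and of 6 Schlafen genes 2 rose and 1 fell, with Slfn3 at 7.28, 7.21 and 7.16 in KO 24 h cells, against 4.73, 5.06 and 4.83 in KO 4 h cells (2.35, SE 0.18). Near-identical copies may share probes in the ribosomal protein and Schlafen families, and their values are uncertain for that reason.

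Among 17824 probe sets with several genes or none in the annotation 3034 passed the threshold between KO 24 h and KO 4 h in a fit of their own, 676 higher and 2358 lower. What they measure was not analysed here.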
